A study of Mus musculus with 24 samples.

Results

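Cultured neonatal microglia exposed to IL-6 were compared with the same kind of cells exposed to IFNg, using 6 of the 24 RNA-seq libraries of the series, 3 per cytokine, chosen by their labels. All 6 came from neonatal MRL/lpr mice, a lupus-prone strain in which every animal carries the lpr mutation of Fas, the gene of a death receptor. Cells were enzymatically released from brain, selected for CD11b on magnetic beads, and kept for 48 h in medium with 10% serum before 6 h with the cytokine. The doses are not in the labels. The 3 unstimulated libraries of the same strain, age and culture served as the reference for what each cytokine raised or lowered. Libraries exposed to IFNa, to TNFa or to the mixture of the cytokines (3 each, same strain, age and culture) entered the fit, 18 libraries in all, and their levels are given where they help to place a gene. The labels do not say that libraries of a group came from separate animals or cultures, so the p-values measure the spread between these libraries, which may be technical.

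IL-6 (interleukin 6) binds its receptor IL6RA and the shared signalling chain gp130, encoded by Il6st, and acts mainly through the kinase JAK1 and the transcription factor STAT3. IFNg (interferon gamma) binds IFNGR1 and IFNGR2 and acts mainly through JAK1 and JAK2. Both pathways are limited by SOCS proteins, of which SOCS3 restrains gp130 signalling and SOCS1 restrains IFNg signalling. In microglia, the resident macrophages of the brain, IFNg is known for raising antigen presentation and defence genes, and IL-6 is known as a product of activated glia that also acts back on them.

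The DNA element known as GAS, which activated STAT proteins recognise, can be written TTCNNNGAA, which reads the same on both strands and was therefore searched once. It occurred in 8.3% of 32851 RefSeq promoters (build GRCm38.p6) of 300 bases, running from 250 bases before to 50 bases after each start, and in 9.55% of 27025 genes when every promoter of a gene was counted together. Of 32 STAT3 target genes listed for this comparison, 26 were matched to a promoter and 5 held the element there: Cish, Icam1, Sbno2, Socs3 and Tnfrsf1b. Below, 5 promoters with the element are shown because their genes gave the different outcomes of the comparison. Socs3 rose with both cytokines and was not called between them, Sbno2 was higher with IL-6, Icam1 and Irf1 were higher with IFNg, and Gab1 rose with IL-6 and fell with IFNg. Each line gives the 250 bases before the start, 5′ to 3′ on the gene's strand, with the element in capitals.
Socs3: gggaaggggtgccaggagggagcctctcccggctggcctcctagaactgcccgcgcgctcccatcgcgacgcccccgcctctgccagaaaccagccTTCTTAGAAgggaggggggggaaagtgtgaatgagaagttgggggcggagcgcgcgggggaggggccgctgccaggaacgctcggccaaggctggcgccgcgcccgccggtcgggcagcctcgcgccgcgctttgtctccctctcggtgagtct
Sbno2: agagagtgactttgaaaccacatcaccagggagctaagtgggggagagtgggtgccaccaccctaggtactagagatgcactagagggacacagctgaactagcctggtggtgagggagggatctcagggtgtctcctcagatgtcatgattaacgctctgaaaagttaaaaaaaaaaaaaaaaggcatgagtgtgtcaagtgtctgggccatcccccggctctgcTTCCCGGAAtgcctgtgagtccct
Icam1: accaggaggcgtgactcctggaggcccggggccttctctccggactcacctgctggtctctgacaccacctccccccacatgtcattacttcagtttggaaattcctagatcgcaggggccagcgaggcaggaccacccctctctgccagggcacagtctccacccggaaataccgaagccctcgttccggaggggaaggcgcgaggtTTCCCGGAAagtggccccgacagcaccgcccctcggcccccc
Irf1: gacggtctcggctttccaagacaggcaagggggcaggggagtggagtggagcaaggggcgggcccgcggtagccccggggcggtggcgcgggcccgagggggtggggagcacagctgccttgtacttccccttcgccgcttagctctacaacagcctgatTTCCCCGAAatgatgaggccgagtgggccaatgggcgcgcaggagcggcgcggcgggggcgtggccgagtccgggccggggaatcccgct
Gab1: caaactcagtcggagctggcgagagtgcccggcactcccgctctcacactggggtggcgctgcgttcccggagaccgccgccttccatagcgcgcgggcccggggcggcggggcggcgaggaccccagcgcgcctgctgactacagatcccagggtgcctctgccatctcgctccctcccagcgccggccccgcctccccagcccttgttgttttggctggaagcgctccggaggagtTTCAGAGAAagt
The Socs3 stretch is chr11:117969367-117969616 on the minus strand, and its element begins 154 bases before the start. The Sbno2 stretch is chr10:80101188-80101437 on the minus strand, with the element 24 bases before that start. The Icam1 stretch is chr9:21015690-21015939 on the plus strand, with the element 42 bases before the start, and its letters are the same as those in Sbno2. The Irf1 stretch is chr11:53769764-53770013 on the plus strand, with the element 90 bases before the start. The Gab1 stretch is chr8:80880480-80880729 on the minus strand, with the element 12 bases before the start. Other starts of some of these genes differ. Another Sbno2 start has the element with other letters 26 bases before it, and a further Sbno2 start has none. Another Irf1 start has none, and another Gab1 start has the element 28 bases after it. The match describes letters in a window and shows neither binding nor its absence. Genes with the same element stood on opposite sides of the comparison.

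Total counts were 10.08 to 17.39 M (mega) over the IL-6, IFNg and unstimulated libraries, and the 12 microglia markers summed to 6896 to 7747 counts per M (plain CPM) with IL-6 and 5542 to 6760 with IFNg. Of 10 sets of markers of other cells, 4 did not overlap between the cytokines. Plain CPM sums were higher with IL-6 for border macrophages (2063 to 2114, and 1403 to 1676 with IFNg) and neutrophils (190.6 to 314, and 177.9 to 184, with Elane, Ly6g and Mpo at 0 in all IFNg libraries). In the IL-6 libraries of replicates 1, 2 and 3, Mpo stood at 6.31, 0 and 0.0589 plain CPM and Elane at 0.59, 0 and 0. Reads of both thus came mostly from replicate 1. The sums were higher with IFNg for T or NK cells (16.6 to 25.2, and 6.45 to 14.2 with IL-6) and for B or plasma cells (22.7 to 47.8, and 12.7 to 16.1). Cd8a, Gzma and Prf1 were at 0 in all libraries of both cytokines. The part of these cells in the results was not tested. In these bulk samples, fewer cells of a type and less RNA per cell cannot be told apart. The neuron sums overlapped. The 9 neuron markers summed to 93.1, 160.1 and 17.8 plain CPM in the IL-6 libraries of replicates 1, 2 and 3, to 33.0, 3.70 and 19.4 with IFNg and to 58.3, 17.33 and 12.99 in unstimulated cells, and Nefl and Slc17a7 were at 0 in all IFNg libraries. The small nuclear RNA Rn7sk stood at 392, 827 and 1.06 plain CPM with IL-6 and at 0.0614 to 5.004 in the IFNg and unstimulated libraries. The IL-6 libraries of replicates 1 and 2 thus stood apart in these 2 measures, and results were also computed without both, an alternative chosen after seeing the data. Levels below are CPM scaled by TMM, log2 fold changes are IL-6 minus IFNg unless another pair is named, with ± SE, and adjusted p-values are from edgeR's quasi-likelihood test with the replicate number as a block, Benjamini-Hochberg adjusted over 14626 genes. The threshold for a call was an adjusted p of 0.05, and "rose" and "fell" mean called against unstimulated cells. Libraries are listed in the order of replicates 1, 2 and 3.

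Between the cytokines 926 genes (6.33%) were higher with IL-6 and 1672 (11.4%) were higher with IFNg. Counts of list members called between the cytokines, given below, are to be read beside these shares of all genes. Changes of at least 2-fold were found for 345 genes (2.36%) higher with IL-6 and 629 (4.3%) higher with IFNg. Against unstimulated cells 444 genes (3.04%) rose and 270 (1.85%) fell with IL-6 (714, or 4.88%, in either direction). With IFNg 2156 (14.7%) rose and 1312 (8.97%) fell. Counts of list members that rose or fell with a cytokine, given below, are to be read beside these shares. IL-6 was higher in 35.6% of the called genes with TMM scaling and in 59.5% with total counts alone (1752 higher, 1191 lower), where the median of all genes moved by 0.147. Without the block the counts were 383 higher with IL-6 and 838 higher with IFNg. Without the IL-6 libraries of replicates 1 and 2 they were 335 and 734, with the remaining IL-6 library assumed to vary like the other groups. Genes higher with IL-6 than with IFNg were 514 without IFNg replicate 2. Genes that rose and fell with IL-6 were 260 and 161, 219 and 102, and 261 and 99 without unstimulated replicates 1, 2 and 3, 291 and 168 without IL-6 replicate 1, and those that fell were 106 without IL-6 replicate 2.

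**Figure D1:**
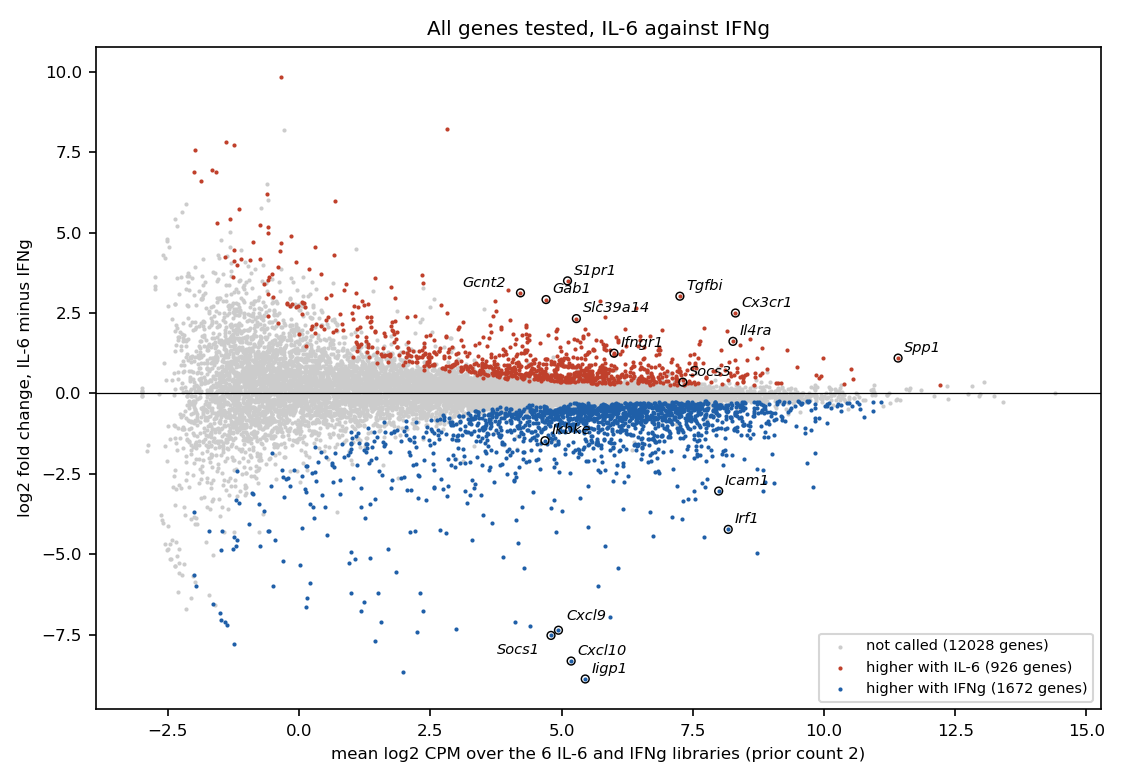
Each point is 1 of 14626 genes, with the mean log2 CPM over the IL-6 and IFNg libraries on the x axis and the log2 fold change of IL-6 minus IFNg on the y axis. Red points (926) were called higher with IL-6 and blue points (1672) higher with IFNg. The blue points reach much larger changes, down to Iigp1 at -8.88, than the red points of well measured genes such as S1pr1 at 3.50 and Gab1 at 2.92.

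The STAT3 target list holds 32 genes known as STAT3 targets in myeloid and other cells, and all 32 passed the filter on low counts. With IL-6, 15 of them (46.9%) rose and 0 fell in edgeR (0 also at an unadjusted p under 0.05, and 0 by DESeq2 or limma-voom), although edgeR called 1, Tnfrsf1b, lower in the fits on fewer groups. With IFNg 19 (59.4%) rose and 1, Tnfrsf1b, fell. The median log2 fold change against unstimulated cells was 0.96 with IL-6 and 1.20 with IFNg, beside 0.00 and -0.02 over all genes. Both comparisons use the same unstimulated libraries. The genes that rose with both were 11 of 32 (34.4%), beside 1.93% of all genes tested. They were Socs3, Bcl3, Etv3, Il4ra, Sbno2, Stat3, Cebpb, Junb, Bcl2l1, Icam1 and Batf. Between the cytokines 4 of the 32 (12.5%) were higher with IL-6, 14 (43.8%) were higher with IFNg and 14 were not called. Among the 11 shared genes, 3 were not called between the cytokines, 2 were higher with IL-6 and 6 were higher with IFNg. The groups' levels did not overlap for 20 of the 32 genes, beside 23.5% of all genes. Without the block 7 genes rose with both cytokines, 8 rose with IL-6, and between the cytokines 4 were higher with IL-6 and 9 with IFNg. Without the IL-6 libraries of replicates 1 and 2, 10 rose with IL-6, 9 rose with both, and 4 were higher with IL-6 and 7 with IFNg.

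Socs3, Bcl3 and Etv3 rose with both cytokines and were not called between them. Socs3, the feedback inhibitor of gp130 signalling, stood at 7.49, 0.845 and 2.08 CPM in unstimulated cells, at 167, 205 and 167 with IL-6 and at 149, 172 and 108 with IFNg. All 6 cytokine libraries were above all unstimulated ones, and the levels of the cytokines overlapped. Its log2 fold change was 5.76 ± 0.58 with IL-6 (edgeR adjusted p = 0.000209), 5.41 ± 0.58 with IFNg (adjusted p = 4.32e-05) and 0.35 ± 0.44 between them (adjusted p = 0.678). Fitted on the IL-6 and IFNg libraries alone, the difference was called in edgeR (adjusted p = 0.0116), and fitted on the IL-6 and unstimulated libraries alone, the rise was not (adjusted p = 0.0903). Bcl3, an IkappaB family member that works in the nucleus with NF-kappaB subunits, stood at 14.5 ± 1.31 CPM (SD, n = 3) in unstimulated cells, at 59.9, 73.9 and 80.3 with IL-6 and at 75.3, 76.0 and 77.8 with IFNg. IL-6 libraries spread below and above the IFNg libraries, and the difference was -0.11 ± 0.11 (edgeR adjusted p = 0.557). Etv3, a transcriptional repressor of the ETS family that is induced by IL-10 through STAT3, stood at 154, 157 and 214 CPM with IL-6 and 157, 180.3 and 179.9 with IFNg, against 91.5 ± 23.7 in unstimulated cells. Its difference between the cytokines was 0.01 ± 0.12 (edgeR adjusted p = 0.965), and its rise with IL-6 was not called without the block (adjusted p = 0.0773). A p above the threshold does not show that both cytokines act alike on these genes.

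**Figure D2:**
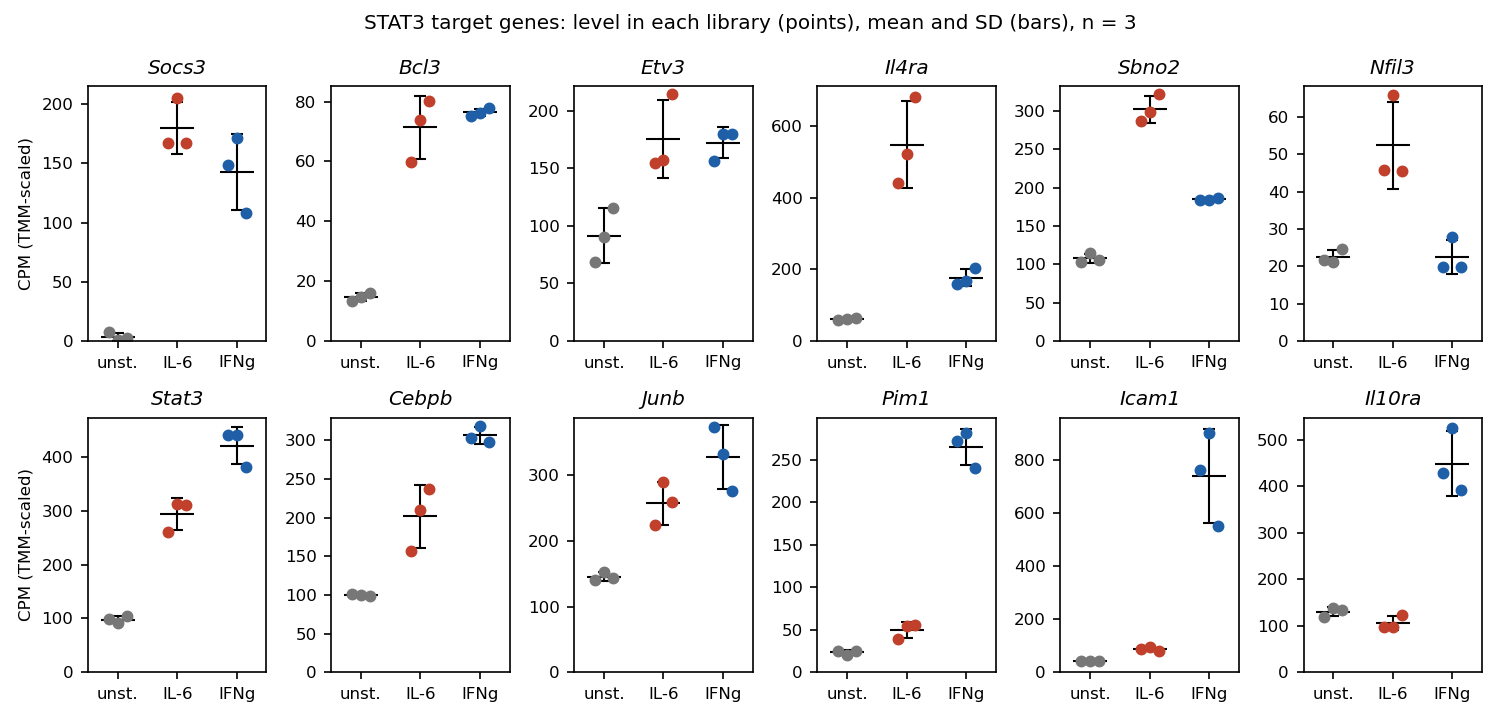
Each panel shows 1 STAT3 target gene, with TMM-scaled CPM from 0 on the y axis, points for the 3 libraries of unstimulated cells, IL-6 and IFNg, and black bars for the mean and SD. Socs3 is near 3.47 in unstimulated cells and above 100 with both cytokines, Il4ra and Nfil3 are highest with IL-6, and Pim1, Icam1 and Il10ra are highest with IFNg.

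Il4ra, Sbno2, Nfil3 and Lrg1 were the STAT3 targets higher with IL-6. Il4ra encodes the alpha chain of the receptors for IL-4 and IL-13. It stood at 59.7, 59.9 and 63.7 CPM in unstimulated cells, 440.0, 523 and 681 with IL-6 and 159, 166 and 204 with IFNg. Every IL-6 library was above every IFNg library, and every IFNg library was above the unstimulated ones. The gene rose by 3.13 ± 0.16 on the log2 scale with IL-6 and by 1.51 ± 0.15 with IFNg, and the difference of 1.62 ± 0.15 had an edgeR adjusted p of 1.10e-06. In the other neonatal groups Il4ra averaged 52.4 ± 17.35 CPM with IFNa, 46.2 ± 8.30 with TNFa and 77.0 ± 32.9 with the mixture, which contains IL-6 and IFNg (SD, n = 3). The mixture was thus below either cytokine alone. Sbno2, a transcriptional regulator known from the IL-10 response through STAT3, stood at 103, 114 and 106 CPM in unstimulated cells, 287, 298 and 321 with IL-6 and 184, 184 and 187 with IFNg, again without overlap. Its difference was 0.71 ± 0.11 (edgeR adjusted p = 9.69e-05), and its promoter stretch printed above carries the same element as that of Icam1.

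Nfil3, a basic leucine zipper repressor, rose with IL-6 and not with IFNg. It stood at 21.6, 21.2 and 24.6 CPM in unstimulated cells, 45.8, 65.9 and 45.5 with IL-6 and 19.8, 27.7 and 19.8 with IFNg. The IFNg libraries lay around the unstimulated mean, and all IL-6 libraries were above both. The log2 fold change was 1.21 ± 0.18 with IL-6 and -0.01 ± 0.18 with IFNg (edgeR adjusted p = 0.973), and the difference was 1.22 ± 0.18 (adjusted p = 8.65e-05). Its rise with IL-6 had an adjusted p of 0.0587 in edgeR without the IL-6 libraries of replicates 1 and 2. Lrg1 encodes a secreted leucine-rich glycoprotein that is a classical acute phase product. It had 0.557, 3.01 and 1.21 CPM with IL-6, 64 reads in all, and 0 reads with IFNg, so it was at least 20.8-fold higher with IL-6 with IFNg set to 3 counts for the whole group as the floor. Unstimulated cells held 2 reads, and the ratio of IL-6 to these was 33.4 with a 95% counting interval of 8.87 to 282, which covers counting error only. The Lrg1 call between the cytokines (edgeR adjusted p = 0.00472) was lost without all libraries of replicate 2 (adjusted p = 0.0884). Its rise with IL-6 (adjusted p = 0.0422) was lost when any 1 of the IL-6 libraries was left out (adjusted p = 0.0583, 0.11 and 0.164 without replicates 1, 2 and 3) or any 1 of the unstimulated libraries (0.166, 0.247 and 0.1).

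Stat3, Cebpb, Junb and Batf, which encode transcription factors, rose with both cytokines and were higher with IFNg. Stat3 itself stood at 98.0 ± 6.78 CPM in unstimulated cells, 260.2, 312 and 311 with IL-6 and 440.1, 439.7 and 380.2 with IFNg. No IL-6 library reached the lowest IFNg library. The difference was -0.52 ± 0.13 (edgeR adjusted p = 0.0086), and it missed the threshold without IL-6 replicate 1 (adjusted p = 0.0553), IFNg replicate 1 (0.0528) or IFNg replicate 2 (0.0541). Cebpb, a C/EBP factor of the acute phase response, stood at 157, 210.3 and 238 CPM with IL-6 and 303, 319 and 298 with IFNg, above 99.9 ± 1.02 in unstimulated cells. These groups did not overlap, and the difference was -0.61 ± 0.13 (edgeR adjusted p = 0.0021), though it was not called without the IL-6 libraries of replicates 1 and 2 (adjusted p = 0.359). Junb, an AP-1 subunit, rose by 0.82 with IL-6 and 1.16 with IFNg on the log2 scale, and its levels of 225, 289.9 and 259 and 373, 333 and 277 CPM overlapped. Its difference of -0.35 ± 0.11 (edgeR adjusted p = 0.0399) was lost without the block (adjusted p = 0.286), with total counts alone (0.22), and without IL-6 replicate 1 (0.2), IL-6 replicate 2 (0.0913), IFNg replicate 1 (0.291) or IFNg replicate 3 (0.0545). Batf, another AP-1 family member, stood at 6.12, 5.74 and 12.3 CPM with IL-6 and 12.5, 15.5 and 12.8 with IFNg. Its IL-6 library of replicate 3 nearly reached the IFNg range, and the difference of -0.76 ± 0.25 (edgeR adjusted p = 0.0422) was lost without any single IL-6 or IFNg library other than IL-6 replicate 3 (adjusted p = 0.177 and 0.219 without IL-6 replicates 1 and 2, and 0.113, 0.162 and 0.0673 without IFNg replicates 1, 2 and 3). The rise of Batf with IL-6 (adjusted p = 0.0331) was also lost in edgeR without unstimulated replicates 1, 2 or 3 (adjusted p = 0.11, 0.105 and 0.147) or IL-6 replicate 3 (0.205).

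Within the list the largest gaps in favour of IFNg lay in Icam1, Pim1, Il1rn, Il10ra and Cish. Icam1, an adhesion molecule that binds leukocyte integrins, stood at 41.3, 41.9 and 43.4 CPM in unstimulated cells, 89.6, 97.1 and 81.8 with IL-6 and 765, 904 and 552 with IFNg. The 3 groups did not overlap, and the difference was -3.04 ± 0.27, or 8.197-fold (edgeR adjusted p = 9.31e-06). Its rise with IL-6, 1.08 ± 0.26 (adjusted p = 0.0357), was lost in edgeR when any 1 of the IL-6 libraries (adjusted p = 0.11, 0.114 and 0.078 without replicates 1, 2 and 3) or unstimulated libraries (0.126, 0.163 and 0.0915) was left out, and without the block (0.0562). Pim1, a serine kinase that supports survival, stood at 24.7, 20.4 and 25.3 CPM in unstimulated cells, 39.2, 55.0 and 55.9 with IL-6 and 273, 282 and 241 with IFNg. Every IL-6 library was above the unstimulated ones and far below the IFNg ones. Its IL-6 change of 1.08 ± 0.31 was not called in edgeR (adjusted p = 0.0768) and was called by DESeq2 (adjusted p = 0.0113), while the difference between the cytokines was -2.41 ± 0.31 (edgeR adjusted p = 0.000184).

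Il1rn, the antagonist of the IL-1 receptor, stood at 16.9, 25.5 and 35.0 CPM with IL-6 and 98.8, 134 and 163 with IFNg, beside 12.9 ± 3.34 in unstimulated cells. The cytokine groups were far apart, with a difference of -2.38 ± 0.31 (edgeR adjusted p = 0.000184), and the IL-6 change was 0.97 ± 0.32 (adjusted p = 0.12, and 0.0293 by DESeq2). Il10ra, the ligand-binding chain of the IL-10 receptor, stood at 97.2, 96.9 and 123 CPM with IL-6 and 428, 526 and 392 with IFNg. The IL-6 libraries lay below the unstimulated mean of 130.5, and the difference was -2.09 ± 0.16 (edgeR adjusted p = 1.81e-07). Cish, a SOCS family member, had few reads, with 1.21, 0 and 0.633 CPM with IL-6 and 3.01, 6.11 and 1.29 with IFNg. Its difference of -2.43 ± 0.80 (edgeR adjusted p = 0.0418) was lost without the block (adjusted p = 0.179), without IL-6 replicates 1 or 2 (0.0928 and 0.114) and without IFNg replicates 2 or 3 (0.246 and 0.0523).

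Genes of survival and growth made up the rest. Bcl2l1 and Mcl1 encode relatives of BCL2 that block cell death. Bcl2l1 stood at 182, 214 and 202 CPM with IL-6 and 290.0, 338 and 274 with IFNg, beside 142 ± 23.2 in unstimulated cells. It rose by 0.48 on the log2 scale with IL-6, a call lost in edgeR without unstimulated replicates 1 or 2 (adjusted p = 0.105 and 0.131) and without the block (0.183), and by 1.07 with IFNg. Its difference was -0.59 ± 0.11 (edgeR adjusted p = 0.000831). Mcl1 changed by 0.23 ± 0.12 with IL-6 (edgeR adjusted p = 0.316) and rose by 0.80 ± 0.12 with IFNg, and their difference of -0.58 ± 0.12 was lost without the block (adjusted p = 0.0807). Ccnd1, the G1 cyclin D1, stood at 162, 175 and 176 CPM with IL-6, within the spread of unstimulated cells (168 ± 32.3), and at 379, 352 and 672 with IFNg. Its difference was -1.37 ± 0.16 (edgeR adjusted p = 2.17e-05). Hif1a, the oxygen-regulated transcription factor, differed by -1.15 ± 0.21 (edgeR adjusted p = 0.00126). Myc stood at 45.9, 26.3 and 21.1 CPM with IL-6, where the library of replicate 1 was high, and 50.001, 51.3 and 39.2 with IFNg. The groups overlapped, and the difference of -0.62 ± 0.16 (edgeR adjusted p = 0.0105) was lost without the block (adjusted p = 0.161), without IL-6 replicates 2 or 3 (0.0679 and 0.0711) and without IFNg replicate 2 (0.0685).

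The list also held 14 genes that were not called between the cytokines. Of these Cebpd, a C/EBP factor, and Il21r, the IL-21 receptor chain, rose with IL-6 (log2 fold change 0.97 ± 0.22 and 2.28 ± 0.53) and were not called with IFNg (0.52 ± 0.22 and 1.23 ± 0.53). Their differences between the cytokines were 0.44 ± 0.21 (edgeR adjusted p = 0.186) and 1.05 ± 0.49 (adjusted p = 0.176), so no difference between the cytokines was shown for either. The rises of Cebpd and Il21r with IL-6 were lost without the block (edgeR adjusted p = 0.21 and 0.078), and that of Il21r also without the IL-6 libraries that stood apart (0.329). The other uncalled members that rose with neither were Fos, Il10, Lcn2, Mmp9, Osmr, Saa3, Timp1, Tnfrsf1b and Vegfa. Il10 had 21 reads with IL-6, 13 with IFNg and 0 in unstimulated cells. Tnfrsf1b, the second TNF receptor, changed by -0.46 ± 0.29 with IL-6 (edgeR adjusted p = 0.435) and fell by 1.25 with IFNg. With IL-6 it was called lower in edgeR on the IL-6 and unstimulated libraries alone (adjusted p = 0.00589) and on these with the IFNg libraries (0.0062). The median difference over all 32 genes was -0.23, beside 0.01 over all genes tested.

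**Figure D3:**
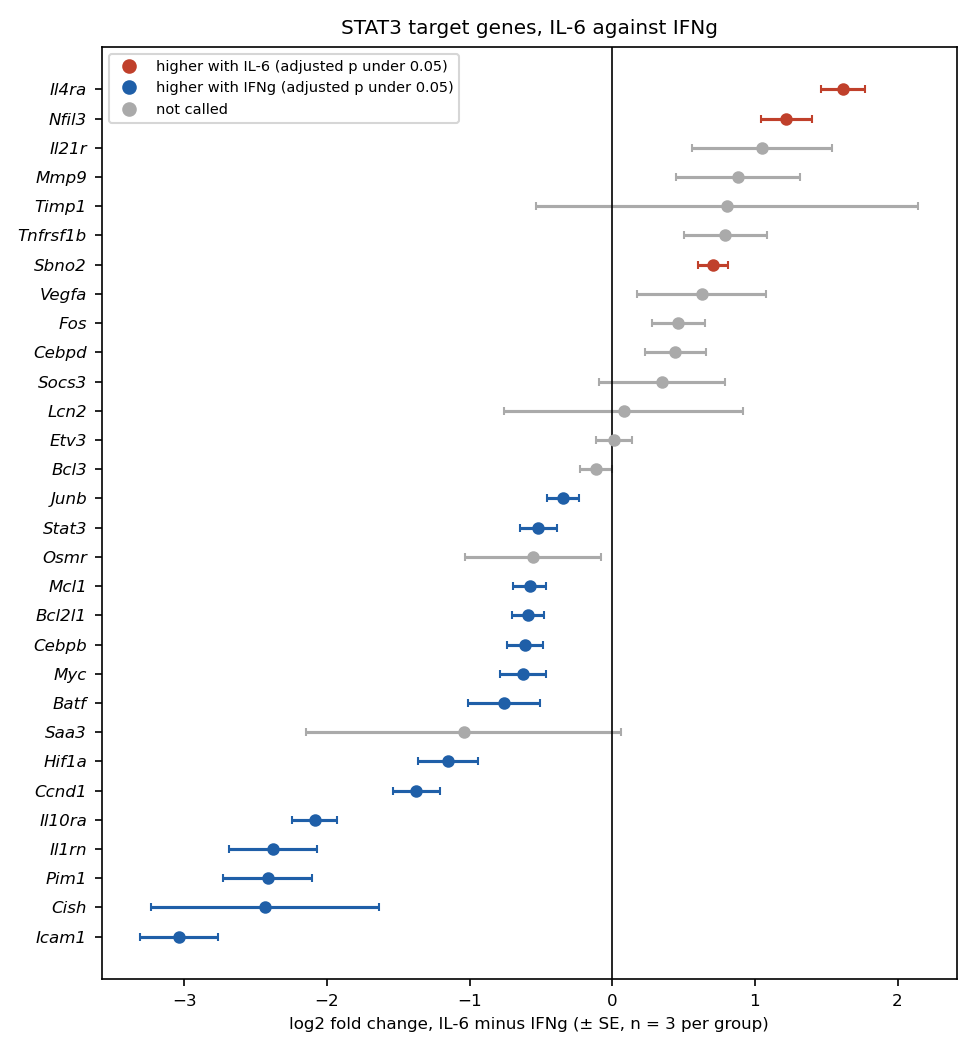
STAT3 target genes are ordered by their log2 fold change of IL-6 minus IFNg (points, with SE as bars, n = 3 per group), and Lrg1 and Il10 are left out because at least 1 group had very few reads. Il4ra, Nfil3 and Sbno2 (red) lie to the right, 14 genes (blue) lie to the left down to Icam1 at -3.04, and grey genes were not called.

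Some receptors and kinases of both pathways differed as well, and others were not called between the cytokines. Il6st, the gp130 chain, stood at 337, 413 and 592 CPM in unstimulated cells, 497, 471 and 625 with IL-6 and 208, 211 and 401 with IFNg. The cytokine groups did not overlap and the gene fell with IFNg (-0.74 ± 0.15, edgeR adjusted p = 0.00174). The difference of 1.03 ± 0.15 (adjusted p = 0.000146) was not called by edgeR without the block (adjusted p = 0.157), and replicate 3 was the highest in both cytokine groups. Il6ra, the binding chain for IL-6, stood at 72.5, 63.1 and 105 CPM with IL-6 and 62.5, 56.0 and 82.4 with IFNg, which overlapped, and differed by 0.25 ± 0.12 (edgeR adjusted p = 0.169). Ifngr1 stood at 93.0, 83.6 and 121 CPM with IL-6 and 39.8, 40.0 and 45.1 with IFNg. It fell with IFNg (-1.49 ± 0.14) and was 2.38-fold higher with IL-6 (edgeR adjusted p = 6.72e-06). Ifngr2 differed by 0.06 ± 0.10 (edgeR adjusted p = 0.756).

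Of the 12 genes of the IL-6 receptor pathway, 1 was higher with IL-6 and 3 with IFNg, beside 6.33% and 11.4% of all genes. The median was -0.14, or 0.01 with total counts alone. The 3 higher with IFNg were Jak2 (-1.10 ± 0.14), Tyk2 (-0.70 ± 0.09) and Ptpn6, the phosphatase SHP-1 (-0.97 ± 0.12). Jak1, the kinase used by both receptors, rose by 0.45 with IL-6 and 0.53 with IFNg and was not called between them (-0.08 ± 0.09, edgeR adjusted p = 0.601). Its rise with IL-6 was lost in edgeR without the block (adjusted p = 0.31) and without the IL-6 libraries that stood apart (0.428), and the difference of Tyk2 was lost without the block (0.098). Of 11 tested genes of the IFNg receptor pathway, 1 was higher with IL-6, Ifngr1, and 6 were higher with IFNg (3 without the IL-6 libraries of replicates 1 and 2). Irf1, a transcription factor induced by interferons, stood at 52.1, 69.6 and 83.1 CPM with IL-6 and 1199, 1385 and 1155 with IFNg, 18.7-fold apart. Its IL-6 change of 0.68 ± 0.37 was not called (edgeR adjusted p = 0.37). Socs1 stood at 2.43, 0.846 and 2.93 CPM with IL-6 and 389, 477 and 329 with IFNg, a difference of -7.52 ± 0.85. It thus stood apart from Socs3, whose levels with both cytokines overlapped.

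Among genes higher with IL-6, those that also rose against unstimulated cells were led by Nav3, Gcnt2, Tgfbi, Gab1, C5ar1, Nova1, Ssh2 and Slc39a14. Tgfbi encodes an extracellular matrix protein that binds integrins. It stood at 52.9, 42.0 and 68.6 CPM in unstimulated cells, 383, 368 and 592 with IL-6 and 47.4, 37.1 and 85.5 with IFNg. The lowest IL-6 library was far above the highest IFNg library, and the IFNg libraries lay on both sides of the unstimulated mean. The log2 fold change was 3.03 ± 0.19 with IL-6, 0.01 ± 0.18 with IFNg (edgeR adjusted p = 0.991) and 3.02 ± 0.19 between them (adjusted p = 5.44e-08). Gab1, an adaptor that gp130 and other receptors use to engage SHP2 and PI3 kinase, stood at 26.3, 24.4 and 23.7 CPM in unstimulated cells, 61.3, 66.0 and 88.0 with IL-6 and 10.5, 8.10 and 9.89 with IFNg. It rose with IL-6 by 1.52 ± 0.19, fell with IFNg by 1.40 on the log2 scale, and differed by 2.92 ± 0.20 (edgeR adjusted p = 2.81e-08). With the mixture it averaged 5.90 ± 1.91 CPM (SD, n = 3), below unstimulated cells.

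Gcnt2, the enzyme that branches poly-lactosamine chains, stood at 48.5, 57.7 and 59.8 CPM with IL-6 and 8.31, 7.62 and 3.62 with IFNg, against 9.50 ± 0.625 in unstimulated cells. Slc39a14, a zinc and iron transporter that is raised by IL-6 in the liver acute phase response, stood at 86.8, 93.2 and 81.5 CPM with IL-6 and 20.2, 16.8 and 15.1 with IFNg, against 15.8 ± 1.88 in unstimulated cells. In both genes all IL-6 libraries were several times above every other library of the 3 groups. The differences were 3.13 ± 0.32 (edgeR adjusted p = 6.74e-06) and 2.33 ± 0.27 (adjusted p = 3.02e-05). Socs2, a feedback inhibitor best known from growth hormone signalling, stood at 13.4, 10.8 and 7.65 CPM with IL-6 and 4.16, 2.61 and 2.26 with IFNg, and rose with IL-6 by 1.87 ± 0.28. Its change with IFNg was 0.05 ± 0.28 (edgeR adjusted p = 0.932), and the difference was 1.82 ± 0.28 (adjusted p = 0.000106). C5ar1, the receptor for complement C5a, stood at 179.7, 199.5 and 283 CPM with IL-6 and 24.2, 24.5 and 64.1 with IFNg, with 83.6 ± 26.5 in unstimulated cells. It fell by 1.23 with IFNg and differed by 2.66 ± 0.33 (edgeR adjusted p = 0.000153). Its rise with IL-6 (1.42 ± 0.32, adjusted p = 0.0255) was lost in edgeR without the block (adjusted p = 0.282), without IL-6 replicates 1 or 2 (0.102 and 0.0854) and without unstimulated replicates 1, 2 or 3 (0.0821, 0.122 and 0.119).

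Ssh2, a phosphatase that activates the actin-severing protein cofilin, stood at 117, 100.05 and 181 CPM with IL-6 and 21.2, 20.8 and 35.7 with IFNg. Replicate 3 was the highest of each group and the groups did not overlap, with a difference of 2.36 ± 0.13 (edgeR adjusted p = 3.26e-09). Its rise with IL-6 by 0.69 was not called without the block (adjusted p = 0.504). Nav3 and Nova1 encode a microtubule-binding protein and an RNA-binding splicing factor, both of which neurons express strongly. Nav3 stood at 19.7, 13.8 and 19.3 CPM with IL-6 and 1.63, 2.34 and 0.582 with IFNg, a difference of 3.68 ± 0.50 (edgeR adjusted p = 6.52e-05). Nova1 stood at 14.32, 27.5 and 10.5 CPM with IL-6 and 3.92, 2.95 and 2.20 with IFNg, a difference of 2.51 ± 0.43 (edgeR adjusted p = 0.000508). The neuron markers summed to 93.1, 160.1 and 17.8 plain CPM in the IL-6 libraries of replicates 1, 2 and 3. Nav3 was lowest and Nova1 highest in that of replicate 2. The part of neuronal RNA in the differences of Nav3 and Nova1 was not tested. The rise of Nav3 with IL-6 was lost in edgeR without unstimulated replicates 2 or 3 (adjusted p = 0.0679 and 0.0787) or the block (0.163). That of Nova1 was lost without IL-6 replicates 1 or 2 (adjusted p = 0.0564 and 0.229), without unstimulated replicates 1, 2 or 3 (0.0886, 0.215 and 0.154) and without the block (0.141).

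**Figure D4:**
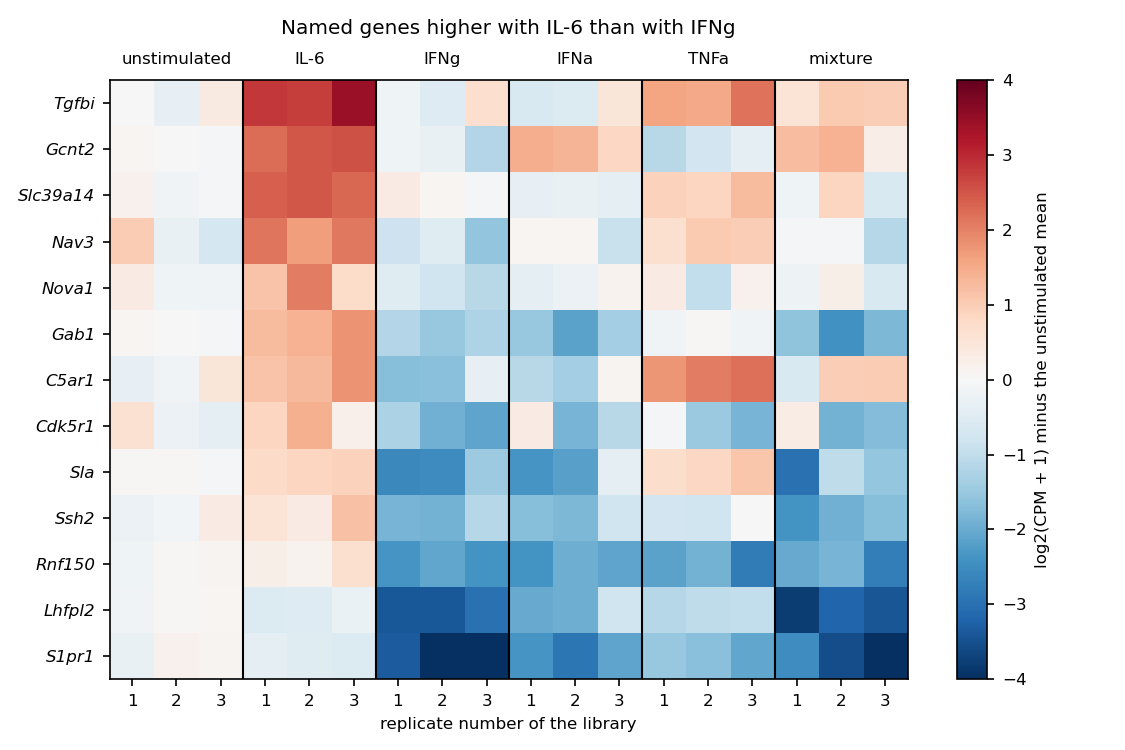
Rows are named genes higher with IL-6 than with IFNg, ordered by their change with IL-6 against unstimulated cells, and columns are the 18 neonatal libraries by group and replicate number. Colour is log2(CPM + 1) minus the unstimulated mean, red above and blue below, and the upper rows such as Tgfbi are red with IL-6 and near white with IFNg, while the lower rows such as S1pr1 are near white with IL-6 and blue with IFNg and with the mixture.

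Another set of genes was higher with IL-6 than with IFNg and fell with IFNg against unstimulated cells. S1pr1, a receptor for sphingosine 1-phosphate, stood at 131, 183 and 175 CPM in unstimulated cells, 124, 116 and 111 with IL-6 and 15, 8.997 and 7.69 with IFNg. The IL-6 libraries were below the unstimulated ones without a call (-0.51 ± 0.33, edgeR adjusted p = 0.452), and the IFNg libraries were 16.1-fold below them. The difference was 3.50 ± 0.38 (adjusted p = 4.48e-05), and the mixture averaged 16.32 ± 10.5 CPM. Lhfpl2, a tetraspan membrane protein gene, stood at 133, 136 and 160.5 CPM with IL-6 and 17.7, 17.6 and 23.7 with IFNg, a difference of 2.88 ± 0.21 (edgeR adjusted p = 3.85e-07). Rnf150, a gene of the RING finger type, stood at 32.3, 30.3 and 43.4 and 4.52, 5.70 and 4.46 CPM, a difference of 2.88 ± 0.26 (edgeR adjusted p = 6.41e-07). In both genes IFNg libraries were below all others of the 3 groups and IL-6 was not called against unstimulated cells. Sla, an adaptor that dampens immune receptor signalling, stood at 45.3, 48.4 and 51.0 CPM with IL-6 and 3.61, 3.78 and 9.11 with IFNg, a difference of 3.23 ± 0.53 (edgeR adjusted p = 0.00112). Without the IL-6 libraries of replicates 1 and 2 its adjusted p was 0.0557. Cdk5r1, the neuronal activator of CDK5, stood at 15.4, 23.4 and 9.49 and 2.77, 1.37 and 1.099 CPM, a difference of 3.43 ± 0.53 (edgeR adjusted p = 0.000259). Like Nova1 it was highest in the IL-6 library of replicate 2, which had the highest sum of neuron markers, and their part in the difference was not tested.

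Genes of the resting microglial state were split. Of 20 homeostatic genes 6 were higher with IL-6 and 5 were higher with IFNg (median 0.09), or 7 and 3 with total counts alone and 6 and 2 without the block. Cx3cr1, the fractalkine receptor, stood at 811, 959 and 977 CPM in unstimulated cells, 768, 704 and 801 with IL-6 and 145, 125 and 131 with IFNg. IL-6 libraries were slightly below the unstimulated ones without a call, IFNg libraries were far below, and the difference was 2.5 ± 0.32 (edgeR adjusted p = 0.000213). Tmem119, a microglial surface protein, stood at 5.57, 9.59 and 8.29 CPM with IL-6 and 2.05, 0.962 and 1.75 with IFNg, a difference of 2.26 ± 0.33 (edgeR adjusted p = 7.04e-05). Gpr34, a lysophosphatidylserine receptor, fell by 1.02 with IL-6, fell by 2.46 with IFNg, and differed by 1.44 ± 0.18 (edgeR adjusted p = 2.07e-05). The fall of Gpr34 with IL-6 was lost without the block (adjusted p = 0.104). On the other side, Sall1, which maintains microglial identity, stood at 53.6, 42.1 and 47.9 CPM with IL-6 and 81.8, 85.0 and 93.2 with IFNg and was higher with IFNg (-0.85 ± 0.14, edgeR adjusted p = 0.000224). P2ry12, the ADP receptor of microglial processes, was also higher with IFNg (-0.79 ± 0.17, adjusted p = 0.00293, and 0.0528 without the block). P2ry13, a related ADP receptor, stood at 29.2, 22.8 and 45.2 CPM with IL-6 and 80.8, 87.7 and 79.8 with IFNg (-1.41 ± 0.35, edgeR adjusted p = 0.0161), a call lost without IL-6 replicates 1 or 2 (0.0659 and 0.0841) or IFNg replicates 1 or 2 (0.0518 and 0.0736).

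Of 20 disease-associated microglial genes 1 was higher with IL-6 and 2 were higher with IFNg (median 0.01), beside 6.33% and 11.4% of all genes. Total counts alone gave 6 and 2, DESeq2 gave 5 and 2, and edgeR without the block gave 0 and 1. The gene higher with IL-6 was Spp1, the secreted matrix protein osteopontin. It stood at 3772, 3579 and 4422 CPM with IL-6, 1530.5, 1302 and 3424 with IFNg and 1288, 1281 and 3449 in unstimulated cells. Replicate 3 was high in the IFNg and unstimulated groups, and its difference of 1.1 ± 0.22 (edgeR adjusted p = 0.00317) was not called without the block (adjusted p = 0.436) or on the 2 groups alone (0.143). Axl, a receptor for apoptotic cells, was higher with IFNg (-0.96 ± 0.12, edgeR adjusted p = 1.14e-05), a call also lost without the block (0.408). Cst7, an inhibitor of cathepsins, stood at 2.58, 0.376 and 2.88 CPM with IL-6 and 8.13, 8.79 and 4.20 with IFNg (-1.83 ± 0.48, edgeR adjusted p = 0.0163), a call lost on the IL-6 and IFNg libraries alone (0.071), with no filter (0.0543) and without IFNg replicates 1 or 2 (0.0655 and 0.0759).

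Of 17 tested genes of alternative activation and the IL-4 pathway 4 were higher with IL-6 (Tgfbi, Socs2, Mrc1 and Msr1) and 5 with IFNg (median 0.30). Mrc1, the mannose receptor, rose by 1.16 with IL-6 and 0.46 with IFNg and differed by 0.71 ± 0.09 (edgeR adjusted p = 1.76e-05). Mrc1 also marks border macrophages, whose 10 markers summed to 2063 to 2114 plain CPM with IL-6, 1403 to 1676 with IFNg and 1883 to 2133 in unstimulated cells, and the part of such cells was not tested. Il13ra1, the chain that pairs with the Il4ra product in the IL-4 and IL-13 receptor, rose with both cytokines and was higher with IFNg (-0.73 ± 0.12, edgeR adjusted p = 0.000165). Il2rg, the common gamma chain of the other IL-4 receptor, was higher with IFNg as well (-1.46 ± 0.25, adjusted p = 0.000404). The 3 chains thus differed in direction. Clec10a, a lectin of alternatively activated macrophages, was higher with IFNg (-1.55 ± 0.31, edgeR adjusted p = 0.00155, and 0.0847 without the block). So was Ppargc1b, a transcriptional coactivator (-2.04 ± 0.65, edgeR adjusted p = 0.0458), a call lost when any 1 IL-6 library (0.17, 0.0625 and 0.142) or IFNg library (0.111, 0.0993 and 0.108) was left out. The call of Msr1 was lost without the block (0.658). With total counts alone 5 of the 17 were higher with IL-6 and 3 with IFNg, and without the block 3 and 2. When the IL-6 libraries of replicates 1 and 2 were left out, 20 were tested, 3 and 2 were called, and the median was -0.37.

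Sterol and lipid genes had 6 of 19 higher with IL-6 and 3 higher with IFNg (median 0.18), or 1 and 2 without the block and 2 and 1 without the IL-6 libraries of replicates 1 and 2. Abca1, the cholesterol exporter, stood at 329, 252 and 496 CPM with IL-6 and 98.2, 104 and 142 with IFNg. It fell with IFNg and differed by 1.63 ± 0.37 (edgeR adjusted p = 0.00998), with an adjusted p of 0.0506 without IFNg replicate 2. Abcg1, a related exporter, went the other way, at 111, 106 and 224 CPM with IL-6 and 231, 278 and 364 with IFNg (-1.04 ± 0.17, edgeR adjusted p = 0.000381), and was not called without the block (0.157). Sqle and Cyp51, enzymes of cholesterol synthesis, rose with IL-6 (0.45 ± 0.12 and 0.51 ± 0.11) and were higher with IL-6 than with IFNg (0.72 ± 0.12 and 0.42 ± 0.11). Their rises were lost in edgeR without the block (adjusted p = 0.682 and 0.66) and without the IL-6 libraries that stood apart (0.449 and 0.462), and so were their differences without the block (0.139 and 0.556). Of this list 4 genes rose with IL-6, or 1 without the block, 2 with total counts alone and 0 without the IL-6 libraries that stood apart (7 there at an unadjusted p under 0.05, and 6 by DESeq2 on all libraries). Fdps, an enzyme of the same route, was higher with IL-6 (1.43 ± 0.36, edgeR adjusted p = 0.00819), and was not called without the block (0.126). Ch25h, the cholesterol 25-hydroxylase, was higher with IFNg (-2.04 ± 0.57, edgeR adjusted p = 0.0303), a call lost without any 1 IL-6 library (0.0754, 0.0814 and 0.108) and without IFNg replicates 2 or 3 (0.088 and 0.0979). The differences of Abca1, Ch25h and Fdps had edgeR adjusted p-values of 0.107, 0.236 and 0.335 without the IL-6 libraries that stood apart. Of 19 immediate early genes 3 were higher with IL-6 (Nr4a1, Fosl2 and Dusp1) and 6 with IFNg (median -0.21). Nr4a1, an orphan nuclear receptor, fell with IFNg and stood at 7.89, 11.7 and 3.80 CPM with IL-6 and 2.53, 3.09 and 1.68 with IFNg (1.61 ± 0.30, edgeR adjusted p = 0.000766). Fosl2, an AP-1 subunit, stood at 50.3, 43.4 and 56.4 and 29.7, 14.6 and 36.4 CPM (0.95 ± 0.18, edgeR adjusted p = 0.000868), a call lost without the block (0.0639). That of Nr4a1 was lost without the IL-6 libraries that stood apart (0.0821). Atf3, a stress-induced repressor, stood at 211, 221 and 198 CPM with IL-6 and 454, 498 and 449.7 with IFNg (-1.15 ± 0.13, edgeR adjusted p = 6.72e-06). Egr2, a zinc finger factor, stood at 2.43, 3.29 and 0.403 and 21.7, 31.2 and 7.37 CPM (-3.32 ± 0.53, edgeR adjusted p = 0.000442).

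Beside 6.33% and 11.4% of all genes, 2 of 21 complement and Fc receptor genes (C5ar1, Fcgr2b) were higher with IL-6 and 8 with IFNg (median -0.33). Without the IL-6 libraries of replicates 1 and 2 these were 1 and 2, and without the block 1 and 4. Fcgr2b, the inhibitory Fc gamma receptor, stood at 26.5, 31.4 and 17.8 CPM in unstimulated cells, 87.2, 93.7 and 58.9 with IL-6 and 52.5, 67.8 and 28.6 with IFNg. It was higher with IL-6 in all 3 replicate pairs, though the groups overlapped. Its difference of 0.74 ± 0.18 (edgeR adjusted p = 0.00882) was lost without the block (adjusted p = 0.343) and without IFNg replicate 3 (0.0634). The activating receptors Fcgr1 and Fcgr4 rose with both cytokines, by 0.90 and 1.46 with IL-6 and by 1.82 and 3.21 with IFNg, and were higher with IFNg (-0.92 ± 0.22 and -1.75 ± 0.22). Both rises with IL-6 were lost in edgeR without the block (adjusted p = 0.511 and 0.266) and without the IL-6 libraries that stood apart (0.478 and 0.112), as was the difference of Fcgr1 (0.244 and 0.284). Of the 21 genes 6 rose with IL-6, or 2 without the block and 1, Fcgr2b, without the IL-6 libraries that stood apart. C3, the central complement component, stood at 14.1, 6.58 and 10.5 CPM with IL-6 and 39.0, 38.4 and 33.7 with IFNg (-1.81 ± 0.26, edgeR adjusted p = 0.000226). Serping1, the C1 inhibitor, stood at 1.62, 0.282 and 1.04 and 16.7, 18.5 and 25.3 CPM (-4.29 ± 0.70, edgeR adjusted p = 0.00103, and 0.0739 without the IL-6 libraries that stood apart).

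The genes higher with IFNg were led by interferon effectors. The 8 with the largest difference were Iigp1, Cxcl10, Socs1, Gbp2b, Cxcl9, Serpina3g, Gbp4 and Tgtp2, none of which was called with IL-6 against unstimulated cells in edgeR. Iigp1, a GTPase that attacks the vacuoles of intracellular pathogens, stood at 0.607, 2.26 and 3.97 CPM with IL-6 and 946, 1076 and 961 with IFNg, a difference of -8.88 ± 1.01 (edgeR adjusted p = 0.000119). Cxcl10 and Cxcl9 encode chemokines for T cells that carry CXCR3. Cxcl10 stood at 1.67, 0.846 and 3.86 CPM with IL-6 and 589.7, 886 and 629.8 with IFNg (-8.32 ± 0.98, edgeR adjusted p = 0.000153). Cxcl9 stood at 2.63, 4.42 and 0.978 CPM with IL-6, above 0, 0 and 0.337 in unstimulated cells, and at 451, 575 and 233 with IFNg (-7.36 ± 0.88, edgeR adjusted p = 0.000182). Its change with IL-6 was not called by edgeR (adjusted p = 0.242) and was called by DESeq2 (0.00268).

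All 17 interferon-inducible GTPase genes were higher with IFNg, with a median of -4.95, and all 17 rose with IFNg. Against unstimulated cells 3 of the 17 also rose with IL-6, where 3.04% of all genes did. They were Gbp2 (2.41 ± 0.45), Gbp3 (2.11 ± 0.27) and Gbp7 (2.34 ± 0.37), beside 7.36, 4.98 and 6.04 with IFNg. DESeq2 called 5 of the 17 higher with IL-6, and without the IL-6 libraries that stood apart only Gbp3 was called in edgeR, with an adjusted p of 0.166 for Gbp2 and 0.159 for Gbp7. Reads of near-identical copies such as Tgtp1 and Tgtp2, Gbp6 and Gbp10 or Gbp2 and Gbp2b are uncertain. Of 24 tested IFNg-inducible effector genes 22 were higher with IFNg and 0 with IL-6 (median -3.21, or -2.29 with genes that had 0 reads in a group at their bound). Of these 24 effectors 3 rose with IL-6 against unstimulated cells, beside 3.04% of all genes. They were Casp1 (0.73 ± 0.11) and Casp4 (2.15 ± 0.19), caspases of the inflammasome pathways, and Tgm2, a transglutaminase (2.40 ± 0.25). DESeq2 called 7 higher and 1 lower with IL-6. In edgeR the rise of Casp1 was lost without the block (adjusted p = 0.122) and without the IL-6 libraries that stood apart (0.236), and those of Casp4 and Tgm2 were not. Of 25 type I interferon-stimulated genes 20 were higher with IFNg and 0 with IL-6 (median -1.50). The count was 9 without the block and 1 without the IL-6 libraries of replicates 1 and 2. Cmpk2, a mitochondrial nucleotide kinase, and Rsad2, the antiviral enzyme viperin, differed by -3.35 ± 0.71 and -3.03 ± 0.69 (edgeR adjusted p = 0.00748 and 0.0115), and both were lost without the IL-6 libraries that stood apart (0.295 and 0.324). Rsad2 was also lost without the block (0.0589) and without IL-6 replicate 1 (0.0562). With IL-6 against unstimulated cells 0 of the 25 rose or fell in edgeR, 3 were higher and 0 lower at an unadjusted p under 0.05, and DESeq2 called 0. None of these 3 lists had a member higher with IL-6 than with IFNg at an unadjusted p under 0.05 or by DESeq2.

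**Figure D5:**
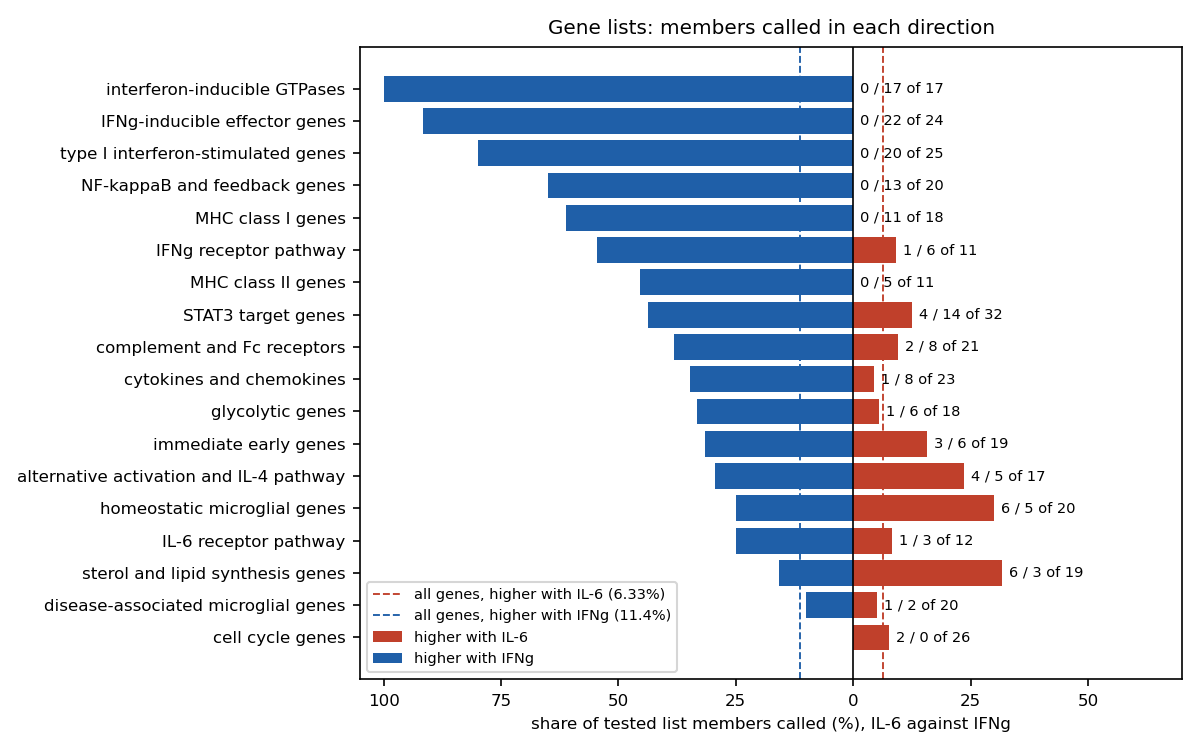
Bars show, for each gene list, the share of tested members called higher with IL-6 (red, to the right) or higher with IFNg (blue, to the left), with the counts printed beside them and dashed lines at 6.33% and 11.4%, the shares over all genes. The GTPase bar reaches 17 of 17 to the left, and the alternative activation, sterol and homeostatic lists have the longest bars to the right, with 4 of 17, 6 of 19 and 6 of 20.

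Among 18 MHC class I genes of antigen presentation 11 were higher with IFNg (median -0.83), as were 5 of 11 tested class II genes (median -1.19). In either list 0 genes were higher with IL-6 in edgeR, in DESeq2 or at an unadjusted p under 0.05. With total counts alone 1 class II gene was. The class I count was 4 without the block, and the class II count was 1 without the IL-6 libraries of replicates 1 and 2. These counts and medians weigh every gene alike, whatever its level. Summed over the 12 listed class II genes, plain CPM were 3386 to 3887 with IL-6, 2934 to 3142 with IFNg and 2949 to 3540 in unstimulated cells. Summed class II RNA was thus not higher with IFNg on this scale. The class I sums were 7278 to 9854 with IL-6 and 9853 to 11584 with IFNg. B or plasma cells also express class II genes. Their markers, at 22.7 to 47.8 plain CPM with IFNg, were above the 12.7 to 16.1 with IL-6. The part of these cells was not tested. Tap1, the peptide transporter, stood at 54.2, 82.5 and 102 CPM with IL-6 and 538, 599.6 and 606 with IFNg (-2.92 ± 0.34, edgeR adjusted p = 9.17e-05). Nlrc5, the transactivator of class I genes, stood at 24.2, 23.2 and 39.1 and 160.2, 181 and 232 CPM against 7.29, 5.43 and 18.4 in unstimulated cells (-2.76 ± 0.32, edgeR adjusted p = 8.54e-05). With IL-6, 4 of the 18 class I genes rose, beside 3.04% of all genes. Among them were Nlrc5, Tapbpl (1.34 ± 0.15), a peptide editor, and H2-Q4 (0.66 ± 0.16), whose reads are uncertain beside its near copies. The count was 1, Tapbpl, without the block, and 2, Tapbpl and H2-Q4, without the IL-6 libraries that stood apart. The rise of Nlrc5 (1.55 ± 0.34) was lost in edgeR without the block (adjusted p = 0.247), without IL-6 replicates 1 or 2 (0.0827 and 0.0666) and without unstimulated replicates 1 or 2 (0.0876 and 0.0944). H2-Oa, a chain of the class II inhibitor H2-O, stood at 0.0506, 0 and 0.23 CPM with IL-6 and 1.81, 3.98 and 2.33 with IFNg (-4.55 ± 0.77, edgeR adjusted p = 0.000412, and 0.0728 without the IL-6 libraries that stood apart). H2-DMa, a chain of the class II peptide loading factor, differed by -1.57 ± 0.38 (edgeR adjusted p = 0.00632), a call lost without IFNg replicate 2 (0.0698) and without the IL-6 libraries that stood apart (0.451).

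Of 20 NF-kappaB and feedback genes 13 were higher with IFNg and 0 with IL-6, also at an unadjusted p under 0.05 and by DESeq2 (median -1.10). Nfkbie, an inhibitor of NF-kappaB, stood at 12.4, 11.19 and 15.6 CPM with IL-6 and 67.5, 88.9 and 62.4 with IFNg (-2.45 ± 0.18, edgeR adjusted p = 1.05e-07). Traf1, a TNF receptor adaptor with few reads, differed by -2.64 ± 0.62 (edgeR adjusted p = 0.00885), a call lost without IL-6 replicate 3 (0.0529). Ikbke, the gene named in the title of the series, encodes the kinase IKKepsilon, which acts upstream of interferon and NF-kappaB responses. It stood at 5.87, 6.64 and 9.67 CPM in unstimulated cells, 13.1, 12.9 and 20.9 with IL-6 and 41.7, 44.4 and 42.8 with IFNg. The IL-6 libraries were above the unstimulated ones and below all IFNg ones. Ikbke rose by 1.08 ± 0.20 with IL-6 (edgeR adjusted p = 0.00405, and 0.179 without all libraries of replicate 1) and by 2.55 ± 0.20 with IFNg, and the difference was -1.47 ± 0.19 (adjusted p = 3.42e-05). Fas, the mutated gene, was near the detection limit, at 0.86, 0 and 0.23 CPM with IL-6 and 1.63, 2.06 and 2.00 with IFNg. Its difference of -2.65 ± 0.71 (edgeR adjusted p = 0.0134) was lost without the block (adjusted p = 0.183), IL-6 replicate 3 (0.058) or IFNg replicate 2 (0.0713).

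Of 23 tested cytokine and chemokine genes 1, Ccl3, was higher with IL-6 and 8 were higher with IFNg (median -0.86, or -0.77 with genes that had 0 reads in a group at their bound). Without the IL-6 libraries of replicates 1 and 2 these counts were 0 and 2. The difference of Ccl3 (0.75 ± 0.23, edgeR adjusted p = 0.0404) was lost without the block (adjusted p = 0.334), without any 1 IL-6 library (0.119, 0.0601 and 0.135 without replicates 1, 2 and 3) and without any 1 IFNg library (0.102, 0.149 and 0.116). Against unstimulated cells 6 of the 23 rose with IL-6, beside 3.04% of all genes, and 5 of these also rose with IFNg. The 6 became 3 without the block, among them Ccl2, and 1, Cxcl16, without the IL-6 libraries that stood apart. Il1b rose by 1.89 ± 0.32 with IL-6 and 1.35 ± 0.33 with IFNg and was not called between them (0.54 ± 0.29, edgeR adjusted p = 0.236). Its rises were lost without the block (adjusted p = 0.329 with IL-6 and 0.285 with IFNg), and that with IL-6 also without the IL-6 libraries that stood apart (0.152). Ccl2, a monocyte chemokine, rose by 1.85 ± 0.45 with IL-6 and 4.33 ± 0.47 with IFNg and was higher with IFNg (-2.47 ± 0.42, edgeR adjusted p = 0.00168), although its reads cannot be fully separated from those of Ccl12. Both its rise with IL-6 (adjusted p = 0.0759) and the difference (0.15) were lost in edgeR without the IL-6 libraries that stood apart. Tnf was higher with IFNg (-3.32 ± 0.28, edgeR adjusted p = 2.13e-06). Il27, a cytokine subunit, stood at 0.557, 0.752 and 0.46 CPM with IL-6 and 10.5, 12.3 and 3.81 with IFNg (-3.87 ± 0.64, edgeR adjusted p = 0.00108, and 0.161 without the IL-6 libraries that stood apart). Ccl22, a chemokine, had 2 reads with IL-6 and 72 with IFNg, a ratio of 36.9 with a 95% counting interval of 9.85 to 310. Its call (edgeR adjusted p = 0.0109) was lost without IFNg replicate 2 (0.0527). The Il6 gene itself had 5 reads with IL-6, 3 with IFNg and 0 in unstimulated cells.

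Glycolytic genes had 1 of 18 higher with IL-6, Pdk1, and 6 higher with IFNg (median -0.16), while total counts alone gave 4 and 4. Pdk1, a kinase that holds back pyruvate dehydrogenase, differed by 0.71 ± 0.17 (edgeR adjusted p = 0.00569) and was not called without the block (0.149). Hk2, a hexokinase, stood at 109, 119 and 159 CPM with IL-6 and 287, 284 and 317 with IFNg (-1.22 ± 0.13, edgeR adjusted p = 3.36e-06). Pfkp, a phosphofructokinase, stood at 59.4, 45.8 and 58.3 and 139, 147 and 192 CPM (-1.54 ± 0.15, edgeR adjusted p = 1.87e-06). In both genes the groups did not overlap and IL-6 was not called against unstimulated cells. Beside 6.33% and 11.4% of all genes, 2 of 26 cell cycle genes were higher with IL-6 and 0 with IFNg in edgeR. DESeq2 also gave 2 and 0, and 5 and 1 were so at an unadjusted p under 0.05 (median 0.13). The 2 called were E2f1 (0.51 ± 0.14) and Mcm4 (0.35 ± 0.11). Both calls were lost without the block (edgeR adjusted p = 0.122 and 0.22), that of E2f1 also without IL-6 replicate 3 (0.0578) and IFNg replicates 1 or 2 (0.06 and 0.113), and that of Mcm4 without IL-6 replicates 1 or 3 (0.164 and 0.0893) and IFNg replicates 1 or 2 (0.198 and 0.125). Against unstimulated cells 12 fell with IFNg and 1 with IL-6, beside 8.97% and 1.85% of all genes. The medians of the 26 genes were -0.45 and -0.37, and 17 and 13 genes were lower at an unadjusted p under 0.05. Both comparisons share the unstimulated libraries.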

How the data were processed

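Cells of 18 neonatal MRL/lpr libraries were measured by RNA-seq, and groups were taken from the labels. The authors deposited raw read counts per gene, not normalised. Per the submitters' processing notes, the tools were cutadapt 2.1 and STAR 2.7.1a, and the build mm10. Which program counted the reads, and whether by strand, is not given in the sources used here. Overlapping genes and near-identical copies are therefore uncertain.

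Under R 4.3.3, these counts were fitted by edgeR 4.0.16 (low counts removed by filterByExpr, TMM scaling, robust quasi-likelihood F test) with terms for group and replicate number over the 18 libraries. Of 55434 genes 14626 passed the filter, with a biological coefficient of variation of 0.195 and 10 residual degrees of freedom. Benjamini-Hochberg adjustment was over all genes tested. The SE was taken as the size of the log2 fold change over the square root of its F value. CPM are counts per M counts, and plain CPM use the library's total without TMM. Replicate pairs of 1 group all differed by more than counting error, and 0 were identical.

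Same-numbered libraries deviated together from their group means (r = 0.561, 0.31 and 0.415 for IL-6 and IFNg, and 0.316 to 0.64 with unstimulated cells), so the numbers pair the libraries; what a number stands for is not in the labels.

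The comparison, the 18 function lists (361 genes) and the 11 marker lists (113 genes) were chosen with earlier results of these data known. Named genes are the STAT3 targets called between the cytokines or raised by both; the 8 with the largest change each way, and the 8 each among genes higher with IL-6 that rose with IL-6 or fell with IFNg, all with at least 2 as their mean log2 CPM, the same direction in 3 pairs, no overlap and no predicted genes; up to 2 called members each way of the other lists; and Ikbke, Fas, Stat3 and the receptor genes. Results for 1 gene of this rule are not reported here. Other list members were picked after their values were seen. Promoters are RefSeq's, of build GRCm38.p6. On simulated counts for this comparison (13909 genes), the fit found 71% of the genes changed 2-fold and 100% of those changed 4-fold, with 5.52% of its calls false. In that simulation 200 genes with enough reads changed, equally up and down, and all genes had the same spread. It held no libraries like the IL-6 libraries that stood apart, so these rates may not hold for the real data. Alternatives were no block, DESeq2 1.42.0, limma-voom (limma 3.58.1), RLE scaling or total counts alone, no filter or a minimum of 1 CPM in 3 libraries, fewer groups in the fit, and each library or replicate number left out.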

Additional observations from a re-analysis of the deposited data

How the results depend on the processing

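Samples of the same replicate number are paired in the fit reported here. Without this replicate block the genes called fell to 383 higher and 838 lower with IL-6 than with IFNg, to 109 higher and 34 lower with IL-6 than unstimulated, and to 1254 higher and 632 lower with IFNg than unstimulated, and the STAT3 targets raised by both cytokines fell to 7. DESeq2 gave 720 higher and 450 lower with IL-6 than unstimulated. With total counts alone 1752 genes were higher with IL-6 than with IFNg and 2553 were lower with IFNg than unstimulated. Genes lower with IL-6 than unstimulated were 473 with no filter, 439 with only these groups and 410 with the IL-6, IFNg and unstimulated libraries alone. Without the IL-6 libraries of replicates 1 and 2, chosen after seeing the data, the counts were 335 and 734 for IL-6 against IFNg and 131 and 31 for IL-6 against unstimulated cells. Leaving out 1 library or 1 replicate number gave 449 to 902 higher and 789 to 1574 lower with IL-6 than with IFNg. It gave 129 to 466 higher and 52 to 289 lower with IL-6 than unstimulated, 1209 to 1849 higher and 775 to 1045 lower with IFNg than unstimulated, and 8 to 11 shared STAT3 targets. Fits that leave out libraries also rest on fewer of them, and the cause of any of these changes was not tested.

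Of 84 named genes called between IL-6 and IFNg, 47 kept the call in every alternative, and of 27 called with IL-6 against unstimulated cells 12 did. In none of these alternatives did a called named gene reverse. Depth limits genes with few reads, such as Lrg1, Cish and Fas, and with 3 libraries per group small differences can be missed.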
